A study of Mus musculus with 6 samples.

Results

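The genes described here are 37 genes of amino acid supply for protein synthesis: 20 cytosolic aminoacyl-tRNA synthetase genes and 17 genes of the amino acid response that is governed by the transcription factor ATF4. They were chosen by name and all 37 were found among the 31130 genes of the deposited tables, 36 under the symbol used here and Mars under its Ensembl identifier with the symbol Mars1. Tryptophanyl-tRNA synthetase, Wars, was kept apart from the other 19 synthetases because interferon-gamma is known to induce it. The 17 further genes were 7 stress regulators, 7 enzymes of amino acid and one-carbon metabolism and 3 amino acid transporters.

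RNA was sequenced from tumor tissue of mice with lung cancer alone (LC, n = 3) and of mice with interstitial pneumonia and lung cancer (IP+LC, n = 3). All were wild-type female C57BL/6 mice of 6 to 8 weeks, in which Lewis lung carcinoma cells labelled with EGFP, a mouse lung cancer line, were placed in the left lung on day 14, and the tumors were taken on day 21. The IP+LC mice had received bleomycin, an agent that causes lung injury and fibrosis, by the oropharyngeal route at 2.0 mg/kg on day 0, whereas what the LC mice received on that day was not given in the sources used here. The comparison sets tumor tissue of the bleomycin model against tumor tissue of lung cancer alone. Both groups carried tumors, so it holds no tumor-free lung, although the tissue taken could include normal lung beside the tumor. Each group is 1 cell line in 1 strain, and the labels name separate tissues without further detail on cages or processing days. P-values set the group difference against the spread between these samples within the groups. A cage or processing day shared by a whole group could not be told apart from bleomycin.

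Deposited values were unique molecular identifiers (UMIs) per gene, each counting 1 captured transcript end. Libraries held 592733 UMIs in LC replicate 1 and 1336919 to 1631066 in the other 5, so that 1 UMI was worth 0.584 to 1.72 CPM (counts scaled to a library of fixed size, after scaling by trimmed mean of M-values). LC replicate 1 stood apart from its group: over the tested genes its correlation with the other LC tumors was 0.840 and 0.799 on the log scale, while theirs with each other was 0.962. With the IP+LC tumors its correlation was 0.814, 0.796 and 0.822, so that it was about as close to them as to LC replicate 3. It moved many values, and values without it are given beside part of the results. Marker genes of normal lung were abundant in LC tumors and lower in IP+LC tumors. Summed alveolar epithelium markers ranged from 38304 to 48371 CPM in LC and from 7185 to 12469 CPM in IP+LC, and 9 of 10 were called lower. In bulk tissue, fewer cells of a type and less RNA per cell cannot be told apart.

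Aminoacyl-tRNA synthetases attach each amino acid to its tRNA and thereby feed the ribosome. When amino acids run short or unfolded proteins build up, kinases phosphorylate the initiation factor eIF2, general translation falls and ATF4 is made from an mRNA that is translated better under these conditions. ATF4 binds with C/EBP partners to the C/EBP-ATF response element and is known to induce synthetase genes, serine and asparagine synthesis and amino acid transporters, while rapidly growing tumor cells also use these genes. Because the ATF4 protein is controlled at translation, its mRNA is not a measure of its activity.

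RefSeq promoters on GRCm38.p6, 250 bases before to 50 bases after the gene start, were matched for 29 of the 37 genes, and none were matched for Cars, Hars, Lars, Nars, Rars, Vars, Wars and Slc7a5. They were searched for the core letters of the C/EBP-ATF response element, TGATGNAA on either strand, which reads TTNCATCA in the other direction. These letters stood in 10 of the 29 promoters (34.5%), compared with 4.51% of the 27025 genes in the same table. The genes were chosen as synthetases and genes of the ATF4 response, so a high share can follow from that choice, and it was not tested. The other 19 matched promoters lacked the letters. A site of each of the 10 genes is shown, each 5′ to 3′ in the direction of the gene, with the core in capitals.
Asns: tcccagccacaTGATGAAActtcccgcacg
Gars: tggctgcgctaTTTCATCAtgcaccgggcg
Tars: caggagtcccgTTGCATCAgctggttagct
Aars: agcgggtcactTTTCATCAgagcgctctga
Iars: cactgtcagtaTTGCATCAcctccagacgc
Yars: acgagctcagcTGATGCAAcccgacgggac
Atf3: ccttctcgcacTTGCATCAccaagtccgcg
Chac1: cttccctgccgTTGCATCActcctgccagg
Trib3: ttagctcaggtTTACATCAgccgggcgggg
Pycr1: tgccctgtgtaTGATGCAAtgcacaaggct

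The sites of Asns (chr6:7693214-7693243, minus strand), Gars (chr6:55037960-55037989, plus strand) and Tars (chr15:11399655-11399684, minus strand) began 23, 30 and 15 bases before the start. The site shown for Aars began at base 10 of the transcript (chr8:111033840-111033869, plus strand). The sites of Iars (chr13:49682126-49682155, plus strand), Yars (chr4:129189895-129189924, plus strand) and Trib3 (chr2:152344028-152344057, minus strand) also lay just inside the transcript, from bases 8, 4 and 15. Those of Atf3 (chr1:191183425-191183454, minus strand), Chac1 (chr2:119351038-119351067, plus strand) and Pycr1 (chr11:120643833-120643862, minus strand) lay farther upstream, 110, 193 and 103 bases before the start. Motifs of interferon signaling were searched in the same way, also on either strand. The STAT motif TTCNNNGAA stood in 4 of the 29 promoters (13.8%, against 9.55% of all genes), and the interferon response element core GAAANNGAA in 2 (6.9%, against 9.76%). A match of letters is a description and not a measured binding site.

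All 19 synthetases other than Wars had a positive log2 fold change of IP+LC over LC, from 0.29 to 1.60 with a median of 1.01, and 13 were called higher at an adjusted p below 0.1 by edgeR with Benjamini-Hochberg adjustment. Of all 11240 genes tested, 16.8% were called higher and 19.6% lower, and their median was 0.02. In 14 of the 19 every IP+LC tumor lay above every LC tumor, as did 21.6% of all genes tested, whereas 21.5% of all genes had every IP+LC tumor below and none of the synthetases did. The summed level of the 19 genes was 1536, 1072 and 1030 CPM in the LC tumors and 2348, 2340 and 2188 CPM in the IP+LC tumors, 1.89 times as high by the group means. Single tumors moved the count of 13: leaving out LC replicate 2 left 6 calls, leaving out IP+LC replicate 1 left 7 and replicate 2 of that group 8, whereas 18 genes passed once LC replicate 1 was dropped, and none was called lower in any of these. The share of all genes tested called higher moved in the same direction, to 8.81%, 9.25%, 7.61% and 28.3% in the same order.

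**Figure D1:**
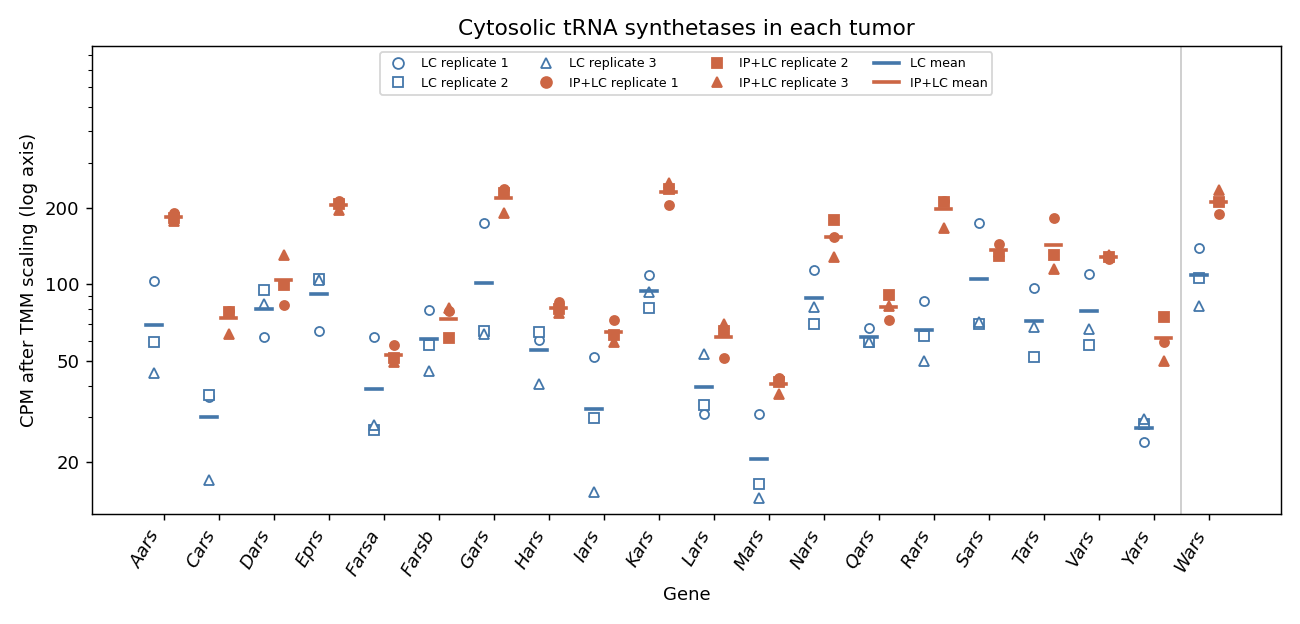
CPM after TMM scaling (log axis) of the 20 cytosolic synthetases in each tumor. Open blue symbols are LC tumors, filled orange symbols IP+LC tumors, the symbol shape gives the replicate and bars are group means. IP+LC tumors lay above all LC tumors for 15 of the 20 genes, Wars included, and LC replicate 1 reached the IP+LC range for Farsa, Farsb and Sars.

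The multisynthetase complex is a particle that binds 8 of these synthetases, and 6 of them were called higher, with a median log2 fold change of 1.09. Rars, which charges arginine, was at 86.1, 62.7 and 50 CPM in LC and at 213, 211 and 167 CPM in IP+LC. This was the largest synthetase difference, a log2 fold change of 1.60 (SE 0.25, edgeR adjusted p = 0.00267), and the groups did not overlap. Kars, for lysine, was at 109, 80.7 and 93.2 CPM in LC and at 206, 237 and 251 CPM in IP+LC (log2 fold change 1.30, SE 0.21, adjusted p = 0.00294). Eprs, a fused enzyme for glutamate and proline, was at 65.4, 105 and 104 CPM in LC and at 213, 207 and 195 CPM in IP+LC (1.14, SE 0.23, adjusted p = 0.00733). In all 3 genes the lowest IP+LC tumor was above the highest LC tumor, and each call was kept with any single tumor left out.

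Within the same complex, Iars, for isoleucine, was at 51.7, 29.8 and 15.3 CPM in LC and at 72.5, 63.0 and 59.5 CPM in IP+LC (log2 fold change 1.11, SE 0.36, edgeR adjusted p = 0.0476). Mars, for methionine, was at 31.0, 16.5 and 14.4 CPM in LC and at 42.8, 41.4 and 37 CPM in IP+LC (1.07, SE 0.29, adjusted p = 0.0247). For both genes LC replicate 1 was the LC tumor nearest to the IP+LC tumors. Lars, for leucine, was at 31.0, 33.7 and 53.4 CPM in LC and at 51.5, 65.4 and 69.7 CPM in IP+LC, so that the groups overlapped, and its call lay just inside the limit (0.63, SE 0.26, adjusted p = 0.0992). Calls of these 3 were lost without LC replicate 2, at adjusted p = 0.16 for Iars, 0.115 for Mars and 0.301 for Lars. The call of Iars was also lost without LC replicate 3 (0.117), IP+LC replicate 1 (0.148), 2 (0.136) or 3 (0.104), and that of Lars without IP+LC replicate 1 (0.12), 2 (0.239) or 3 (0.232). Lars was not called either with DESeq2 (adjusted p = 0.189), with the size factors of DESeq2 (0.108), with upper quartile scaling (0.126) or in thinned libraries (0.359). Qars, for glutamine, did not overlap between the groups, with 59.3 to 67.2 CPM in LC and 72.5 to 90.5 CPM in IP+LC, yet did not pass the test (0.41, SE 0.20, adjusted p = 0.154). Dars, for aspartate, ranged from 62.0 to 94.8 CPM in LC and from 82.7 to 131 CPM in IP+LC and did not pass either (0.36, SE 0.25, adjusted p = 0.309). Without LC replicate 1, Qars passed with a log2 fold change of 0.47 (adjusted p = 0.03) and Dars did not (0.23, adjusted p = 0.327).

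Of the 11 synthetases outside the complex, Wars not counted, 7 were called higher and the median log2 fold change was 0.82. Aars, for alanine, was at 103, 59.5 and 44.9 CPM in LC and at 191, 183 and 177 CPM in IP+LC (log2 fold change 1.45, SE 0.29, edgeR adjusted p = 0.00802). Cars, for cysteine, was at 36.2, 36.8 and 16.9 CPM in LC and at 78.3, 78.2 and 63.9 CPM in IP+LC (1.32, SE 0.30, adjusted p = 0.012). Yars, for tyrosine, was at 24.1, 28.2 and 29.7 CPM in LC and at 59.5, 74.7 and 50.1 CPM in IP+LC (1.15, SE 0.23, adjusted p = 0.00788). These 3 rose with no overlap between the groups and kept their calls with any tumor left out, although in libraries thinned to the smallest Yars lost its call (adjusted p = 0.131). Over 49.9% of the Iars transcript, but not in its last 500 bases, near-identical sequence stands in the gene model Gm4849, and 50% of the last 500 bases of Farsb overlap Sgpp2 on the opposite strand. The last 500 bases of the longest Aars transcript are also part of an Exosc6 transcript, a gene on the same strand, so reads there can belong to either.

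Gars, for glycine, was at 174, 65.8 and 63.6 CPM in LC and at 238, 229 and 190 CPM in IP+LC (log2 fold change 1.16, SE 0.37, edgeR adjusted p = 0.0477). Tars, for threonine, was at 96.4, 51.7 and 67.8 CPM in LC and at 182, 130 and 115 CPM in IP+LC (1.01, SE 0.28, adjusted p = 0.0287). Nars, for asparagine, was at 114, 69.7 and 81.4 CPM in LC and at 154, 179 and 129 CPM in IP+LC (0.82, SE 0.24, adjusted p = 0.0354). In all 3 the highest LC tumor was replicate 1, which came close to the lowest IP+LC tumor without reaching it. Vars, for valine, was at 110, 58.0 and 66.9 CPM in LC and at a narrow 125, 128 and 130 CPM in IP+LC (0.74, SE 0.26, adjusted p = 0.0609). Leaving out LC replicate 2 ended the calls of Gars (adjusted p = 0.178), Tars (0.121), Nars (0.147) and Vars (0.221). Leaving out IP+LC replicate 1 also did so for all 4, at adjusted p = 0.142 for Gars, 0.12 for Tars, 0.107 for Nars and 0.147 for Vars. Without LC replicate 3 the adjusted p was 0.139 for Gars, 0.101 for Nars and 0.163 for Vars. Without IP+LC replicate 2 it was 0.147, 0.15 and 0.168 in the same order, and without IP+LC replicate 3 it was 0.149 for Vars. Dropping LC replicate 1 moved the log2 fold change of Gars to 1.77 (adjusted p = 9.15e-07).

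The other 4 synthetases outside the complex did not pass the test. Hars, for histidine, missed the limit narrowly although its groups did not overlap, with 40.7 to 65.0 CPM in LC and 77.0 to 85.6 CPM in IP+LC (log2 fold change 0.55, SE 0.23, edgeR adjusted p = 0.102). Farsa and Farsb encode the subunits of the enzyme for phenylalanine. Farsa was at 62.0, 26.6 and 28.0 CPM in LC and 58.0, 51.4 and 49.4 CPM in IP+LC (0.53, SE 0.32, adjusted p = 0.243), and Farsb ranged from 45.8 to 79.2 CPM in LC and from 61.3 to 80.6 CPM in IP+LC (0.29, SE 0.25, adjusted p = 0.411). Sars, for serine, was at 174, 69.7 and 71.2 CPM in LC and 144, 130 and 134 CPM in IP+LC (0.41, SE 0.34, adjusted p = 0.404). For Farsa and Sars LC replicate 1 was above all 3 IP+LC tumors, and dropping that tumor gave a log2 fold change of 0.96 for both (adjusted p = 0.00106 and 0.000113). Hars (0.61, adjusted p = 0.0178) and Farsb (0.50, adjusted p = 0.0409) were called without that tumor too.

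By catalytic class, which divides synthetases by the fold of their active site, 9 of 10 class I enzymes (Wars included, median log2 fold change 1.09) and 5 of 10 class II enzymes (median 0.69) were called higher. Eprs, which carries an active site of each class, was counted in class I only. The difference between the classes was not tested. Of the 13 synthetases with a matched promoter, the 5 that held the C/EBP-ATF core were all called higher, with a median of 1.15, and 3 of the 8 without it were, with a median of 0.47. Among the amino acid response genes the medians stood the other way, with 2 of 3 tested genes that held the core called higher (median 1.11) and 6 of 11 without it (median 1.48). Over both sets together the medians were 1.13 for the 8 tested genes with the core, 7 of them called, and 1.07 for the 19 without it, 9 of them called. Of all genes tested 16.8% were called higher. The difference between genes with and without the core was not tested. Which tissue cells the transcripts came from cannot be read from these libraries.

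Wars was at 139, 106 and 82.2 CPM in LC and at 189, 211 and 235 CPM in IP+LC. The groups did not overlap and the log2 fold change was 0.97 (SE 0.24, edgeR adjusted p = 0.0173), near the median of the other 19. Its share of the UMIs of all 20 synthetases was 8.32%, 8.98% and 7.39% in LC and 7.46%, 8.26% and 9.68% in IP+LC, and these ranges overlapped. Its call was kept with any tumor left out, with log2 fold changes of 0.79 to 1.18 and adjusted p of 3.94e-05 to 0.0749. Beside it, all 12 genes of an interferon-gamma response list (Irf1, Gbp2, Cxcl9 and others) were called higher with a median of 2.49, and their summed level was 779 to 1047 CPM in LC and 5057 to 6572 CPM in IP+LC.

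Of the 17 amino acid response genes 15 could be tested, 9 were called higher and none lower, against 16.8% and 19.6% of all genes tested, and their median log2 fold change was 1.48. Every IP+LC tumor lay above every LC tumor in 8 of the 15 (21.6% of all genes tested) and below in 1, Ppp1r15a (21.5%). Leaving out single tumors gave 7 to 13 calls, with 13 without LC replicate 1, while 7.61% to 28.3% of all genes tested were called higher in these fits. Enzymes and transporters supplied 7 of the 9 calls.

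**Figure D2:**
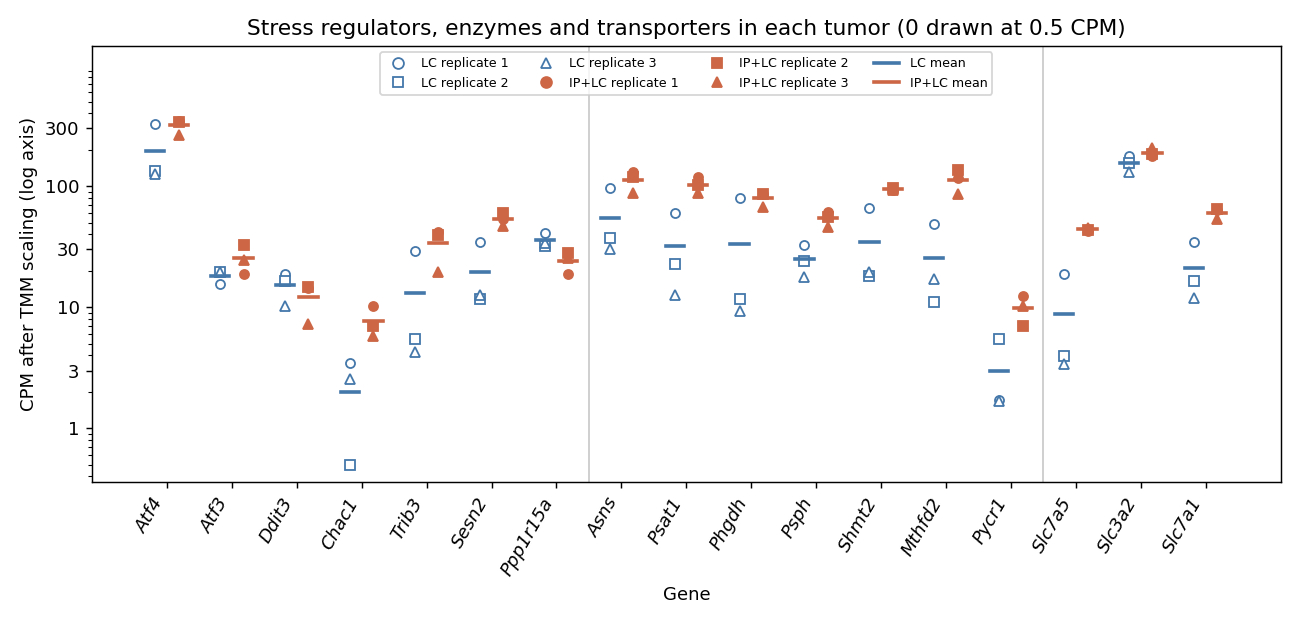
CPM after TMM scaling (log axis) of the 17 amino acid response genes in each tumor, with stress regulators, enzymes and transporters separated by vertical lines from left to right. Symbols are as for the synthetases, bars are group means and the single 0 (Chac1 in LC replicate 2) is drawn at 0.5 CPM. LC replicate 1 lay above the other LC tumors for 15 of the 17 genes, as for Phgdh with 79.2 against 11.8 and 9.3 CPM.

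Among the stress regulators, Atf4 mRNA was at 329, 134 and 126 CPM in LC and at 346, 341 and 265 CPM in IP+LC. The groups overlapped through LC replicate 1 and the difference did not pass (log2 fold change 0.71, SE 0.36, edgeR adjusted p = 0.176). Without that tumor it was 1.30 (adjusted p = 1.2e-05). Atf3, a stress-induced transcription factor, ranged from 15.5 to 19.6 CPM in LC and from 18.9 to 32.7 CPM in IP+LC (0.46, SE 0.29, adjusted p = 0.262). Ddit3 encodes CHOP, the factor of prolonged endoplasmic reticulum stress, and was at 18.9, 16.5 and 10.2 CPM in LC and at 14.5, 14.6 and 7.3 CPM in IP+LC (-0.26, SE 0.38, adjusted p = 0.639). UMIs of Ddit3 per UMI of Atf4 were 0.0576, 0.123 and 0.0805 in LC and 0.0419, 0.0428 and 0.0274 in IP+LC, so that the ratio was lower in every IP+LC tumor than in any LC tumor. These ratios rest on few Ddit3 UMIs, 11, 21 and 12 in LC and 20, 25 and 10 in IP+LC, and were not tested. Exons of Ddit3 overlap those of other genes, Mars on the opposite strand among them, over 10.9% of its exonic bases, and the use of the strand in counting was not given in the sources used here.

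Sesn2, encoding a stress protein that senses leucine, was at 34.4, 11.8 and 12.7 CPM in LC and at 53.7, 59.5 and 47.2 CPM in IP+LC, a log2 fold change of 1.61 (SE 0.36, edgeR adjusted p = 0.0121) without overlap. Trib3, a pseudokinase gene induced by ATF4 and CHOP, was at 29.3, 5.5 and 4.2 CPM in LC and at 42.1, 39.7 and 19.6 CPM in IP+LC (1.71, SE 0.61, adjusted p = 0.0654). Its groups overlapped because LC replicate 1 exceeded IP+LC replicate 3, and its call was lost without LC replicate 2 (adjusted p = 0.25), LC replicate 3 (0.201), IP+LC replicate 1 (0.193) or IP+LC replicate 2 (0.208), while dropping LC replicate 1 gave a log2 fold change of 2.79. Chac1, for an enzyme that degrades glutathione, had too few UMIs to be tested, with 3.4, 0 and 2.5 CPM in LC and 10.2, 7.0 and 5.8 CPM in IP+LC. Ppp1r15a encodes GADD34, which directs the removal of phosphate from eIF2, and went the other way, with 41.3, 32.1 and 33.9 CPM in LC and 18.9, 28.0 and 25.4 CPM in IP+LC. The groups did not overlap but the difference did not pass (-0.54, SE 0.24, adjusted p = 0.129), whereas in libraries thinned to the smallest it did (-1.46, adjusted p = 0.0849).

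Of the enzymes, Mthfd2, which acts in the mitochondrial folate pathway, was at 48.2, 11 and 16.9 CPM in LC and at 117, 136 and 85.7 CPM in IP+LC. It had the largest difference among the enzymes, a log2 fold change of 2.31 (SE 0.45, edgeR adjusted p = 0.00704), and it was 3.04 once LC replicate 1 was dropped. UMIs of Mthfd2 per UMI of its cytosolic counterpart Mthfd1 were 0.491, 0.14 and 0.114 in LC and 1.75, 2.56 and 1.18 in IP+LC. Shmt2, which supplies that pathway from serine, was at 65.4, 18 and 19.5 CPM in LC and at 93.5, 96.3 and 92.2 CPM in IP+LC (1.59, SE 0.43, adjusted p = 0.0242), and its call was lost only without LC replicate 2 among the tumors (1.24, adjusted p = 0.111), while dropping LC replicate 1 gave 2.33.

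Serine is made from a glycolytic intermediate by Phgdh, Psat1 and Psph in that order. Phgdh was at 79.2, 11.8 and 9.3 CPM in LC and at 85.6, 85.8 and 67.5 CPM in IP+LC, and it did not pass the test (log2 fold change 1.48, SE 0.64, edgeR adjusted p = 0.119). LC replicate 1 alone overlapped the IP+LC tumors, and dropping this tumor gave a log2 fold change of 2.92 (adjusted p = 3.96e-07). The Phgdh counts are uncertain because 89.5% of its transcript is near-identical to other annotated transcripts, among them pseudogenes. Psat1 was at 60.3, 22.7 and 12.7 CPM in LC and at 118, 102 and 88.6 CPM in IP+LC (1.82, SE 0.45, adjusted p = 0.0174). Psph was at 32.7, 24.3 and 17.8 CPM in LC and at 61.6, 56.0 and 45.7 CPM in IP+LC (1.18, SE 0.26, adjusted p = 0.0114). Both rose without overlap and kept their calls with any tumor left out, although in libraries thinned to the smallest Psph lost its call (0.71, adjusted p = 0.217). Dropping LC replicate 1 gave 2.53 for Psat1. Asns, which makes asparagine, was at 96.4, 37.6 and 30.5 CPM in LC and at 131, 119 and 87.9 CPM in IP+LC (1.11, SE 0.40, adjusted p = 0.0667). Its groups overlapped through LC replicate 1, and its call was lost without LC replicate 2 (adjusted p = 0.236), LC replicate 3 (0.187), IP+LC replicate 1 (0.196), 2 (0.187) or 3 (0.102), while dropping LC replicate 1 gave 1.73. Pycr1, of proline synthesis, had too few UMIs to be tested, with 1.7, 5.5 and 1.7 CPM in LC and 12.3, 7.0 and 10.2 CPM in IP+LC.

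Slc7a5, the light chain of a transporter for leucine and other large neutral amino acids, had the largest difference of all 35 tested genes. It was at 18.9, 3.9 and 3.4 CPM in LC, from only 11, 5 and 4 UMIs. In IP+LC it was at 42.8, 43.8 and 45.0 CPM, from 59, 75 and 62 UMIs. The log2 fold change of 2.65 (SE 0.47, edgeR adjusted p = 0.00468) kept its call with any tumor left out and was 3.56 once LC replicate 1 was dropped. Slc3a2, its heavy chain partner, was at 177, 157 and 131 CPM in LC and at 178, 184 and 205 CPM in IP+LC (0.29, SE 0.20, adjusted p = 0.312), and it was called only without LC replicate 1 (0.40, adjusted p = 0.0343) among the tumors left out. UMIs of Slc7a5 per UMI of Slc3a2 were 0.107, 0.025 and 0.0258 in LC and 0.24, 0.238 and 0.22 in IP+LC. The ratio was thus higher in every IP+LC tumor than in any LC tumor. Slc7a1, a transporter of arginine and lysine, was at 34.4, 16.5 and 11.9 CPM in LC and at 63.1, 64.2 and 53.7 CPM in IP+LC (1.66, SE 0.33, adjusted p = 0.00777).

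**Figure D3:**
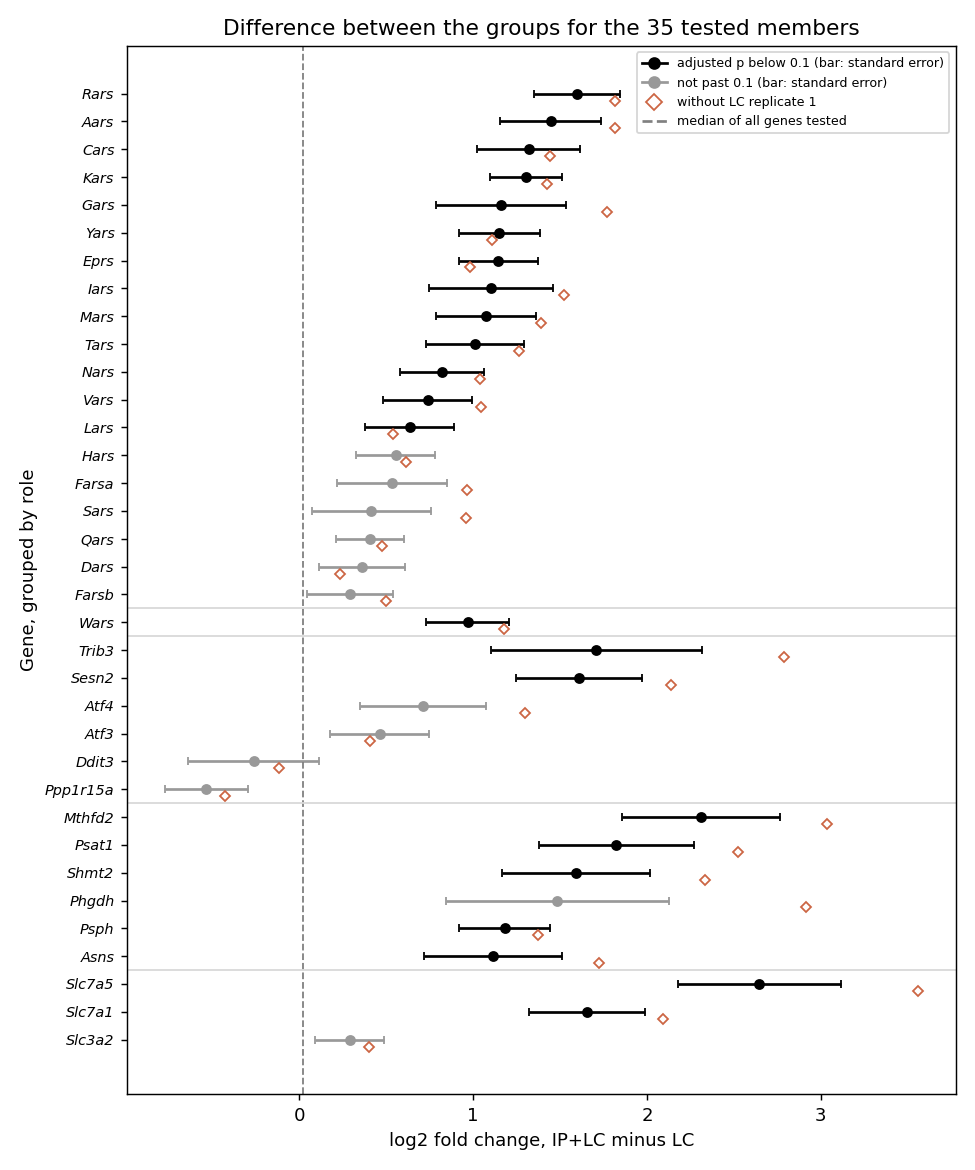
Log2 fold change of IP+LC over LC for the 35 tested genes (x axis), grouped by role from top to bottom as synthetases, Wars, stress regulators, enzymes and transporters. Points with bars are the values and standard errors over all 6 tumors, black where the edgeR adjusted p was below 0.1, open diamonds are values without LC replicate 1 and the dashed line is the median of all genes tested, 0.02. Slc7a5 lay farthest to the right at 2.65, and only Ddit3 and Ppp1r15a lay left of 0.

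LC replicate 1 lay above both other LC tumors for 29 of the 37 genes (78.4%), compared with 41.7% of all genes tested, and at or above the lowest IP+LC tumor for 9, which included Ddit3 and Ppp1r15a with their negative fold changes. That was 24.3% of the 37, compared with 58.2% of all genes tested, among which those lower in IP+LC were counted too. The exceptions below both other LC tumors were Dars, Eprs, Lars, Yars and Atf3. Proliferation markers followed the same order of samples. Their sum was 649 CPM in LC replicate 1, 141 and 162 CPM in LC replicates 2 and 3 and 1210 to 1337 CPM in IP+LC. Of the 10 markers 9 were called higher, against 16.8% of all genes tested, with a median log2 fold change of 1.75. LC replicate 1 was above the other LC tumors in 9 of the 10. Without that tumor all 10 were called higher, with a median of 2.95. The part of proliferation, of the shallower library and of the share of normal lung in the results for the 37 genes was not tested. Without LC replicate 1, 18 of the 19 synthetases and 13 of 16 tested amino acid response genes, Pycr1 now among them (1.39, SE 0.54, edgeR adjusted p = 0.042), were called higher, but so were 28.3% of all genes tested.

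Neighbouring pathways were read in the same fit. Of 15 tested mitochondrial synthetases, which serve translation inside the mitochondrion and are separate genes, 2 were called higher and 1 lower, with a median log2 fold change of 0.15, where 16.8% of all genes tested were called higher and 19.6% lower, and these shares stand behind each list that follows. Their summed level was 238 to 282 CPM in LC and 273 to 294 CPM in IP+LC. Yars2 rose (1.09, SE 0.35, edgeR adjusted p = 0.0463) and Nars2 fell (-0.79, SE 0.31, adjusted p = 0.0866). Without LC replicate 1, 5 of 15 mitochondrial synthetases were called higher and none lower, with a median of 0.11, so the call of Nars2 was lost. Of all genes tested in that fit 28.3% were called higher and 28.7% lower, which also stand behind later counts without that tumor. The difference between the mitochondrial and the cytosolic genes was not tested. Eef1e1, a scaffold protein of the multisynthetase complex, was called higher (1.08, SE 0.28, adjusted p = 0.0217), as the only call of 2 tested scaffold genes.

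Of 13 genes of the eIF2 kinases, eIF2, its exchange factor and the phosphatase subunit Ppp1r15b, 3 were called higher with a median of 0.27. They were Ppp1r15b (log2 fold change 0.62, SE 0.23, edgeR adjusted p = 0.0794), which directs the removal of phosphate from eIF2 like GADD34, Eif2ak2, the interferon-induced kinase PKR (1.56, SE 0.38, adjusted p = 0.0174), and Eif2s2, a subunit of eIF2 (0.87, SE 0.19, adjusted p = 0.0113). Without LC replicate 1, 5 of the 13 were called higher, with a median of 0.25. In a list of other target and partner genes of ATF4, 7 of 20 tested were called higher and 4 lower, with a median of 0.28. Gdf15, a stress-induced hormone, had 4, 2 and 3 UMIs in LC and 30, 36 and 34 in IP+LC (2.85, SE 0.44, adjusted p = 0.00258), and Got1, an aspartate transaminase, rose by 1.43 (SE 0.33, adjusted p = 0.0136). In the same list Nupr1, a stress-induced chromatin protein, fell by 1.39 (SE 0.19, adjusted p = 0.00166), and Map1lc3b, of autophagosomes, fell by 0.88 (SE 0.19, adjusted p = 0.0105).

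Unfolded protein response genes, for chaperones and folding sensors of the endoplasmic reticulum, were called higher in 10 of 16 and lower in none, with a median log2 fold change of 1.11. The sensors Ern1 (0.28, edgeR adjusted p = 0.521) and Atf6 (0.30, adjusted p = 0.376) were not among the calls. Without LC replicate 1, 14 of the 16 were called higher, with a median of 1.44. The smallest p-values were those of Edem1 (1.38, SE 0.22, edgeR adjusted p = 0.00308) and Sdf2l1 (1.82, SE 0.30, adjusted p = 0.00353). Of 10 tested one-carbon genes outside the 37, 3 were called higher and 1 lower with a median of 0.65. Without LC replicate 1, 5 of the 10 were called higher and 2 lower, with a median of 0.58. Atic, which serves purine synthesis, rose (1.28, SE 0.32, adjusted p = 0.0201), while Mthfd1 fell (-0.76, SE 0.27, adjusted p = 0.0665). Of 6 tested enzymes of tryptophan and arginine metabolism, the amino acids of Wars and Rars, 4 were called higher and none lower. Among them was Ass1, of arginine synthesis (1.17, adjusted p = 0.0251). Ido1, which degrades tryptophan, had 1, 1 and 2 UMIs in LC and 13, 47 and 35 in IP+LC (adjusted p = 0.00368), and Nos2, which uses arginine, had 1, 3 and 2 UMIs in LC and 27, 86 and 23 in IP+LC (adjusted p = 0.00411).

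**Figure D4:**
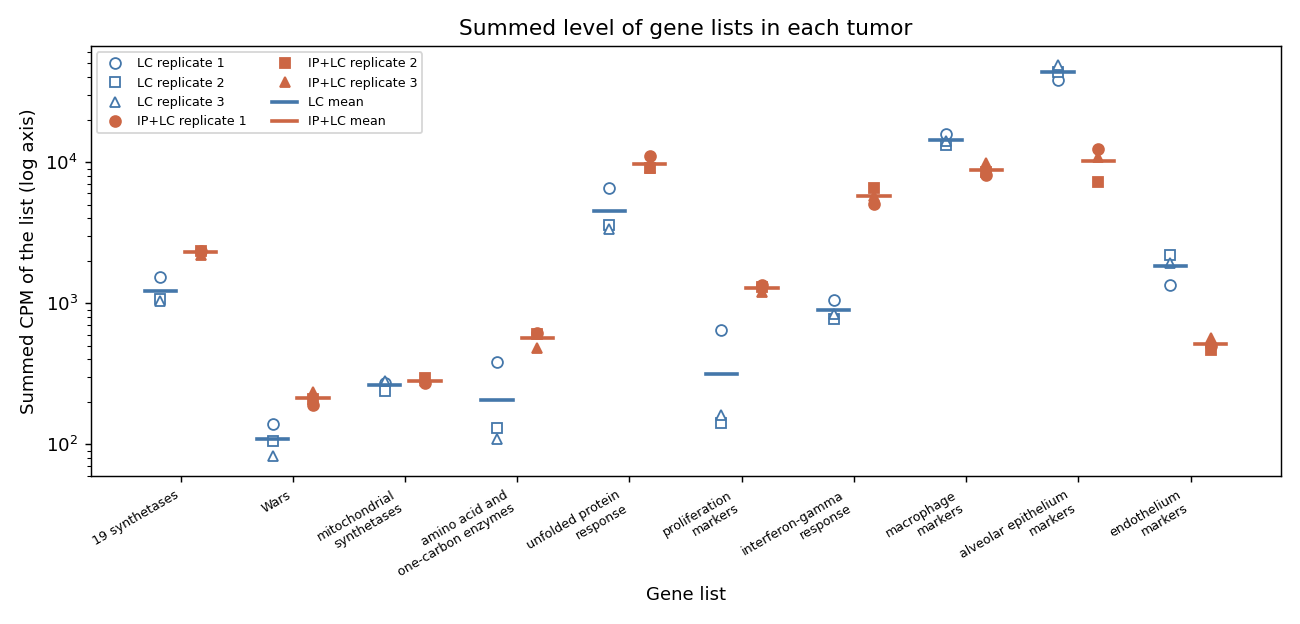
Summed CPM (log axis) of 10 gene lists in each tumor. Open blue symbols are LC tumors, filled orange symbols IP+LC tumors, the symbol shape gives the replicate and bars are group means. LC replicate 1 lay above LC replicates 2 and 3 for the 19 synthetases, Wars, the enzymes and the unfolded protein response genes. The same order held for the proliferation, interferon-gamma response and macrophage lists. For alveolar epithelium and endothelium markers LC replicate 1 lay below both, and mitochondrial synthetases stayed between 238 and 294 CPM in all 6 tumors.

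Markers of other cells moved with the groups as well. Macrophage markers were called higher in 5 of 10 and lower in 1, and without LC replicate 1 higher in 8 of 10 and lower in 1. Their summed level was 13249 to 15772 CPM in LC and 8108 to 9788 CPM in IP+LC. Most of that sum was Lyz2, a lysozyme gene, with 12374 to 13592 CPM in LC and 5473 to 7043 CPM in IP+LC (log2 fold change -1.11, edgeR adjusted p = 0.0127). The sum of the other 9 markers went the other way, with 2354, 875 and 630 CPM in LC and 2421, 3058 and 2745 CPM in IP+LC, and LC replicate 1 was again the LC tumor nearest to the IP+LC tumors. Airway epithelium (8 of 8, 49910 to 58775 CPM in LC and 3431 to 7340 CPM in IP+LC), endothelium (9 of 9, 1341 to 2213 and 465 to 570 CPM) and muscle markers (9 of 9, 1028 to 2149 and 262 to 484 CPM) were called lower. Fibroblast markers were called higher in 2 and lower in 5 of 8, with sums of 1631 to 2118 CPM in LC and 1686 to 1795 CPM in IP+LC. None of 7 tested T cell markers was called (136 to 166 and 108 to 220 CPM), while 4 of 5 B cell markers (200 to 291 and 37.7 to 148 CPM) and 4 of 6 tested neutrophil markers (997 to 2069 and 198 to 349 CPM) were lower. In each of these lists every marker had a UMI in at least 1 tumor, and the part of these cells in the values of the 37 genes was not tested.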

How the data were processed

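RNA of 3 LC and 3 IP+LC tumors was sequenced by bulk RNA barcoding. The authors deposited unnormalized UMI counts per gene, which they made with UMI-tools 1.1.1, Trim Galore 0.6.7, HISAT2 2.2.1 on GRCm38 and featureCounts 2.0.1, and their submitters' notes also name DESeq2. The annotation release, the strand setting and the handling of reads with several matches were not given in the sources used here, which can shift counts of overlapping or duplicated genes.

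Samples were grouped by their titles. Genes were kept by filterByExpr (minimum count 10, minimum total 15), which left 11240, scaled by TMM and compared by the quasi-likelihood test of edgeR 4.0.16 in R 4.3.3 without a block. P-values were adjusted over all genes tested by Benjamini-Hochberg with a limit of 0.1. With 3 tumors against 3, an exact permutation test of a single gene cannot go below p = 0.1. The procedure was tested on simulated data. Alternatives were other scalings and filters, DESeq2 1.42.0, limma 3.58.1 (voom), a replicate block, a limit of 0.05, libraries thinned to 592733 UMIs and each tumor left out. Identical transcripts were searched with blastn 2.17.0+ in GENCODE M21 (at least 81 bases, 95% identity).

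All 37 genes are reported, and from each pathway list up to 2 genes called in each direction with the smallest p. Ppp1r15b, Ass1, Lyz2, Ern1 and Atf6 were named after their values were seen. The 37 genes and the lists were chosen with earlier results of these data known. No pair of libraries within a group agreed within sampling noise. Of the enzymes of tryptophan and arginine metabolism, 11 of 12 were matched. A few genes and 1 site that the rules would name are not reported here.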

Additional observations from a re-analysis of the deposited data

How the results depend on the processing

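Wars kept its call under all 16 alternatives, with log2 fold changes of 0.79 to 1.18. Over the 19 other synthetases, 258 of 304 single values kept direction and side of the limit, 37 lost and 9 gained a call and none reversed; over the 15 tested amino acid response genes, 208 of 237 kept them, 15 lost and 13 gained a call and 1 reversed, Ddit3 without IP+LC replicate 3 (0.00613, adjusted p = 0.994), which ranged down to -0.52 without LC replicate 3. Libraries thinned to the smallest gave 1661 genes called of 8856 tested in place of 4088 of 11240, and 6 synthetases in place of 13, with the calls of Gars, Iars, Lars, Mars, Tars, Vars and Yars lost and, among the other genes, those of Trib3, Asns and Psph. Leaving out 1 tumor gave 2265 to 6691 genes called (6691 without LC replicate 1), 6 to 18 synthetases and 7 to 13 amino acid response genes. Scaling by library size alone moved the median log2 fold change of all genes from 0.02 to 0.18 and the share of higher among all calls from 46.1% to 58.3%, and gave 15 synthetases and 10 amino acid response genes called higher. With no filter beyond 1 UMI, Chac1 (2.22, edgeR adjusted p = 0.0364) and Pycr1 (1.68, adjusted p = 0.0483) were called. Where every library had to hold at least 10 UMIs, and in the thinned libraries, Ppp1r15a was called lower. With the replicate number of the labels as a block, 3410 genes, 13 synthetases and 11 amino acid response genes were called, Atf4 and Phgdh among the latter, and Wars was at 0.99 (adjusted p = 0.045). The deviations of samples with the same number correlated at 0.0234, -0.111 and 0.0998, so the numbers were not taken to pair the samples. The causes of these changes were not tested.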
